A study of Mus musculus with 4 samples.

Results

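The nucleolar ribosome biogenesis genes are 42 mouse genes, listed by symbol, whose products transcribe ribosomal RNA (rRNA) and turn it into ribosomal subunits. Of these, 41 were found among the 23235 symbols of the deposited tables, and Noc2l was not analysed here. All 41 had a mean of at least 1 FPKM, a fragment count scaled to transcript length and to the mapped fragments of the library, over the 4 libraries, with values from 3.50 to 695 FPKM. They were grouped by the step in which their products act, as 6 genes of RNA polymerase I (Pol I) transcription, 4 of small nucleolar ribonucleoproteins (snoRNPs), 4 of nucleolar proteins with several roles, 14 of the small ribosomal subunit and 13 of the large subunit.

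Polyadenylated RNA was sequenced from primary embryonic fibroblasts of C57BL/6 mice, 1 library for each of 4 genotypes. The labels gave these as wild type, Gadd45-/-, G3 Terc-/- and G3 Gadd45-/-Terc-/- (dKO), and the design text named the gene as Gadd45a. G3 denotes the generation of breeding without Terc, the RNA template of telomerase. How many embryos went into a library is not stated in the labels. Every difference below is between single libraries, with no replicate check, no test and no p-value.

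The Gadd45a transcript went against the labels, at 22.9 FPKM in the wild-type library, 33.9 in the library labelled Gadd45-/-, 31.4 in the G3 Terc-/- library and 45.1 in the library labelled dKO, so both Gadd45 genotypes are given as labelled. The tables hold no value per exon, so a deleted stretch could not be looked at. Terc was listed at 0.53, 0.26, 0 and 0 FPKM in these libraries. The library labelled Gadd45-/- held the Y-linked Ddx3y at 16.4 FPKM and the other libraries at 0.02 FPKM or less, so sex differed along with its label. No member lies on the X or Y chromosome. All 10 fibroblast markers stood at 1 FPKM or more in every library, but their levels differed in both directions. Col1a1 stood at 4270 FPKM in wild type and 1697 in the G3 Terc-/- library, and Dcn at 25.6 and 584. The sum of the 10 was 11612 FPKM in wild type and 7312 in the G3 Terc-/- library. Of markers of other cell types, none of 4 endothelial and none of 4 red cell genes reached 1 FPKM in any library. Of 6 leukocyte genes 2 or 3 did, with a sum of 5.08 FPKM in wild type and 17.8 in the library labelled dKO, where Lyz2 stood at 11.5, while the defining gene Ptprc stayed at 0.08 or less. Of 4 epithelial genes 1 or 2 did, with a sum of 8.62 FPKM in wild type and 1.67 in the G3 Terc-/- library, and Epcam stayed at 0.11 or less. The neural genes Tubb3 and Nes did in every library, with a list sum of 44.7 to 102 FPKM, highest in the library labelled dKO, and Sox2 stayed under 1. The part of these genes' cells in the results was not tested. Estimated depth was 19400000 to 19800000 fragments per library, which put an estimated 198 or more fragments behind every member's value.

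In the nucleolus, Pol I copies the ribosomal DNA into 1 long precursor RNA. snoRNPs modify this precursor and help to fold and cleave it. A large processome acts on the part that becomes the small-subunit rRNA, while a separate chain of particles matures the large subunit. Cells that grow and divide make many ribosomes, and the transcription factor MYC is a known activator of many of these genes.

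All 41 members stood lower in the G3 Terc-/- library than in wild type, where 49.6% of all compared genes were lower and 50.4% higher. Their median difference of log2(FPKM + 1) was -0.83, against 0.01 over the 11588 genes compared, which are those with a mean of at least 1 FPKM. Of the 41, 15 were lower by at least 1 on this scale, a 2-fold difference of FPKM + 1, where 6.24% of all compared genes were. At the smaller size of 0.5, 34 members were lower, against 18.5% of genes. None was higher by either size, where 9.93% of genes were higher by at least 1. A lower value in bulk RNA can mean fewer cells that express a gene or less RNA per cell, which cannot be told apart.

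In rank order, the members also set the Terc-deficient libraries apart from the Terc-proficient ones. For 41 of 41, both G3 libraries lay below both other libraries, an order that 35.2% of compared genes had. This count and that of members lower than wild type take gaps of any size. For Polr1e, Ddx10 and Noc3l the counting intervals (described below) of wild type and the G3 Terc-/- library overlapped. The members were also chosen with earlier results of these data known. Summed over members, the level was 2189 FPKM in the wild-type library, 2091 in the library labelled Gadd45-/-, 1071 in the G3 Terc-/- library and 1279 in the library labelled dKO. The G3 libraries thus held 48.9% and 58.4% of the wild-type sum, while all symbols together summed to 95.3% and 93.5% of wild type. Npm1 alone made up a large part of the sum, and without it the shares were 52.1% and 61.3%.

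**Figure D1:**
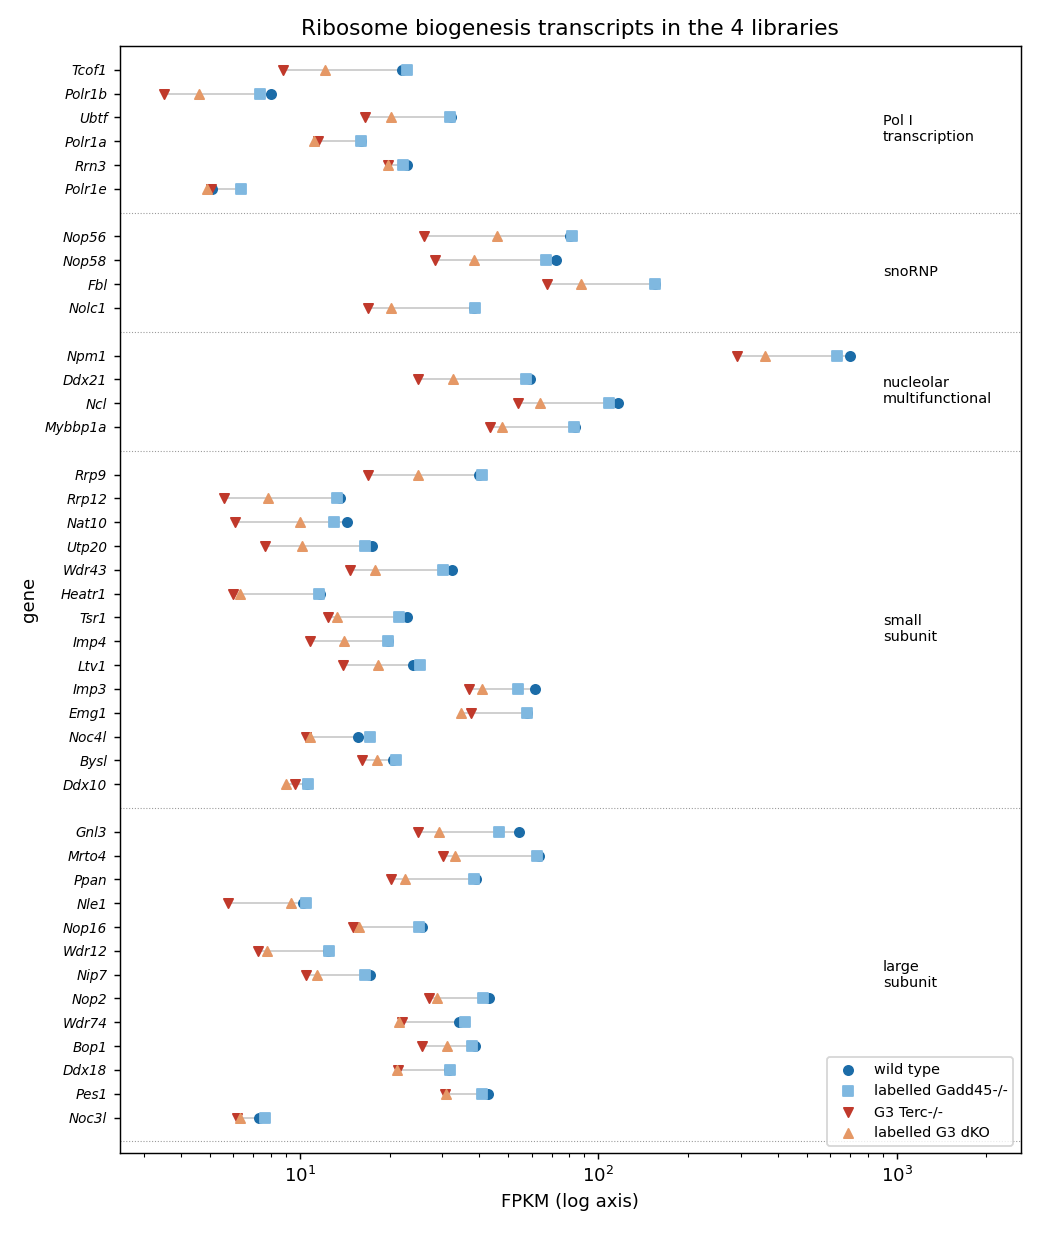
FPKM on a log axis for each of the 41 genes (rows, grouped by step and ordered within a step by the difference between the G3 Terc-/- library and wild type), with 1 symbol per library. The red and orange triangles of the G3 libraries lie left of both blue symbols in all 41 rows, closely for Polr1e and widely for Nop56.

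**Figure D2:**
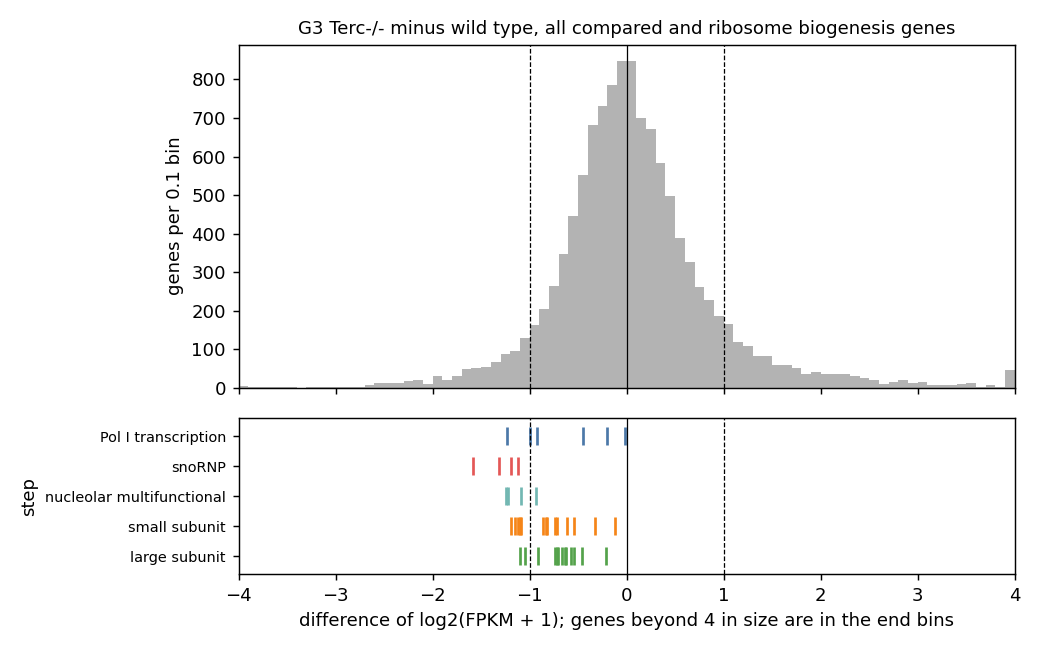
The upper panel counts genes per bin of the difference of log2(FPKM + 1) between the G3 Terc-/- library and wild type for the 11588 compared genes, and the lower panel marks each member in its step. Dashed lines stand at 1 and -1. The counts of all genes centre near 0, and every member lies on the negative side, 15 of them beyond -1.

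Pol I transcription genes ranged from -0.01 to -1.24 in their difference between the G3 Terc-/- library and wild type. Tcof1 encodes treacle, a nucleolar protein that supports Pol I transcription. It stood at 22.0 FPKM in the wild-type library, 22.8 in the library labelled Gadd45-/-, 8.76 in the G3 Terc-/- library and 12.1 in the library labelled dKO. Polr1b, the second largest Pol I subunit, stood at 7.99, 7.37, 3.50 and 4.597 FPKM, with libraries in that order throughout. Ubtf, which binds ribosomal DNA along its length, stood at 32.3, 32.0, 16.6 and 20.2 FPKM. In each of these the G3 Terc-/- library was lowest and the library labelled dKO next. Their differences between the G3 Terc-/- library and wild type were -1.24, -0.999 (just short of the 2-fold size) and -0.92.

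The remaining Pol I genes differed less. Polr1a, the largest subunit and part of the catalytic centre, stood at 16.05, 16.1, 11.5 and 11.1 FPKM in the wild-type library, the library labelled Gadd45-/-, the G3 Terc-/- library and the library labelled dKO. Rrn3, the initiation factor that brings Pol I to its promoter, stood at 23.0, 22.2, 19.8 and 19.8 FPKM. For Rrn3 the G3 libraries held 86.2% and 86.0% of wild type. Polr1e, a subunit of the heterodimer that Pol I does not share with Pol II, stood at 5.10, 6.34, 5.05 and 4.88 FPKM. Its counting intervals (exact Poisson, 95%, from estimated fragments, covering counting error only) of 4.54 to 5.72 FPKM in wild type and 4.49 to 5.66 in the G3 Terc-/- library overlapped almost wholly, so no difference was detectable at this depth. Over the 6 genes the median difference was -0.69, with 1 past the 2-fold size.

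The snoRNP genes were the group with the largest median difference, -1.25, and all 4 passed the 2-fold size. Fbl encodes fibrillarin, the methyltransferase of box C/D snoRNPs, and stood at 155 FPKM in both Terc-proficient libraries, 67.6 in the G3 Terc-/- library and 87.8 in the library labelled dKO. Nop56, a core scaffold protein of the same particles, stood at 80.3 FPKM in the wild-type library, 81.9 in the library labelled Gadd45-/-, 26.1 in the G3 Terc-/- library and 45.9 in the library labelled dKO. The Terc-proficient libraries were alike for both genes and far above the G3 libraries. Nop56 had the largest difference of all members, -1.58, at 32.6% of the wild-type level.

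Nop58, the partner of Nop56, stood at 72.2, 66.9, 28.5 and 38.3 FPKM. Nolc1, a chaperone that binds snoRNPs and Pol I, stood at 38.3, 38.6, 17.0 and 20.3 FPKM. Their differences between the G3 Terc-/- library and wild type were -1.31 and -1.12, and for both the library labelled dKO lay a little above the G3 Terc-/- library.

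Abundant nucleolar proteins with several roles showed nearly the same pattern, with a median of -1.16 and 3 of 4 past the 2-fold size. Npm1, nucleophosmin, a chaperone of ribosome particles that also binds the tumour suppressor ARF, was the most abundant member at 695 FPKM in the wild-type library, 632 in the library labelled Gadd45-/-, 293 in the G3 Terc-/- library and 363 in the library labelled dKO. Ncl, nucleolin, an RNA-binding protein of rRNA transcription and folding, stood at 116, 109, 53.95 and 63.96 FPKM. Both were lowest in the G3 Terc-/- library, at 42.1% and 46.4% of wild type. Npm1 is known to have processed copies elsewhere in the genome, which makes its level uncertain.

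The helicase gene Ddx21 stood at 59.2, 57.4, 24.8 and 32.7 FPKM. Mybbp1a, which encodes a MYB-binding protein that restrains rRNA synthesis, stood at 83.6, 82.9, 43.4 and 47.8 FPKM. Ddx21 thus passed the 2-fold size, at -1.22, and Mybbp1a, at -0.93, did not.

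Small-subunit genes had a median difference of -0.83 between the G3 Terc-/- library and wild type, with 5 of 14 past the 2-fold size and 12 of 14 past 0.5. The largest was that of Rrp9, a protein of the snoRNP that guides the first cleavages of the precursor, at 40.0 FPKM in the wild-type library, 41.0 in the library labelled Gadd45-/-, 17.0 in the G3 Terc-/- library and 24.96 in the library labelled dKO. Rrp12, a HEAT-repeat protein of subunit maturation and export known from yeast, stood at 13.7, 13.4, 5.59 and 7.82 FPKM. Nat10, the acetyltransferase of the small-subunit rRNA, stood at 14.4, 13.0, 6.09 and 9.99 FPKM. These genes shared one order, with the G3 Terc-/- library lowest and the library labelled dKO between it and the Terc-proficient libraries.

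Processome components Utp20 and Wdr43 also passed the 2-fold size, both with a difference of -1.09. Utp20 stood at 17.4, 16.6, 7.63 and 10.2 FPKM and Wdr43 at 32.5, 30.3, 14.8 and 17.9 FPKM. Heatr1, which belongs with Wdr43 to the subcomplex linked to Pol I transcription, stood at 11.7, 11.6, 5.99 and 6.33 FPKM, a difference of -0.86. Of the partners of the processome protein MPP10, Imp3 stood at 61.2, 53.9, 36.9 and 40.7 FPKM and Imp4 at 19.8, 19.7, 10.8 and 14.1 FPKM. All of these were lower in both G3 libraries than in either other library.

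The remaining small-subunit genes had differences from -0.12 to -0.83. Tsr1, a factor bound to the immature small subunit, stood at 22.9, 21.5, 12.4 and 13.3 FPKM, and Ltv1, an export and assembly factor, at 23.97, 25.2, 13.9 and 18.4 FPKM. Emg1, a methyltransferase of small-subunit rRNA, stood at 57.7, 57.6, 37.4 and 34.8 FPKM. Noc4l, whose yeast relative acts in small-subunit assembly, stood at 15.7, 17.3, 10.5 and 10.8 FPKM. The smallest differences were those of Bysl, bystin, at 20.5, 21.0, 16.2 and 18.2 FPKM, and of the helicase gene Ddx10, at 10.6, 10.7, 9.61 and 9.01 FPKM. In Bysl and Ddx10 the G3 Terc-/- library held 78.9% and 90.9% of the wild-type level, and their differences, -0.32 and -0.12, were the only 2 in this group short of 0.5 in size.

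Large-subunit genes had the smallest median of all 5 groups, -0.66, with 2 of 13 past the 2-fold size and 11 of 13 past 0.5. Gnl3 encodes nucleostemin, a nucleolar GTP-binding protein of stem and tumour cells, and stood at 54.5 FPKM in the wild-type library, 46.4 in the library labelled Gadd45-/-, 24.9 in the G3 Terc-/- library and 29.4 in the library labelled dKO. Mrto4, a relative of the ribosomal stalk protein that holds its place during assembly, stood at 63.6, 62.4, 30.3 and 33.3 FPKM. These were the members past the 2-fold size, with differences of -1.10 and -1.04. The annotation names 2 pseudogenes of Mrto4, so its level is uncertain. Ppan stood just short of the size at -0.91, with 38.9, 38.3, 20.2 and 22.6 FPKM.

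The PeBoW complex, formed by the products of Pes1, Bop1 and Wdr12 and needed for processing of the large-subunit rRNA, differed moderately. Pes1 stood at 42.7, 40.9, 30.8 and 31.0 FPKM, Bop1 at 38.8, 37.9, 25.7 and 31.1 FPKM, and Wdr12 at 12.5, 12.6, 7.23 and 7.80 FPKM. Their differences between the G3 Terc-/- library and wild type were -0.46, -0.58 and -0.71. Nle1, an assembly factor that docks on a remodelling enzyme, stood at 10.3, 10.5, 5.74 and 9.33 FPKM, so that the library labelled dKO held 91.0% of wild type and the G3 Terc-/- library 56.0%.

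Among the rest, the rRNA methyltransferase gene Nop2 stood at 42.9, 41.2, 27.2 and 28.8 FPKM, and the helicase gene Ddx18 at 31.6, 31.9, 21.4 and 21.2 FPKM. Wdr74 stood at 34.3, 35.8, 21.9 and 21.5 FPKM, Nop16 at 25.6, 25.2, 15.1 and 15.8 FPKM and Nip7 at 17.1, 16.6, 10.5 and 11.5 FPKM. Each of these lay between -0.54 and -0.72 in the comparison of the G3 Terc-/- library with wild type. Noc3l differed least in the group, at 7.33, 7.65, 6.18 and 6.31 FPKM, a difference of -0.21.

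**Figure D3:**
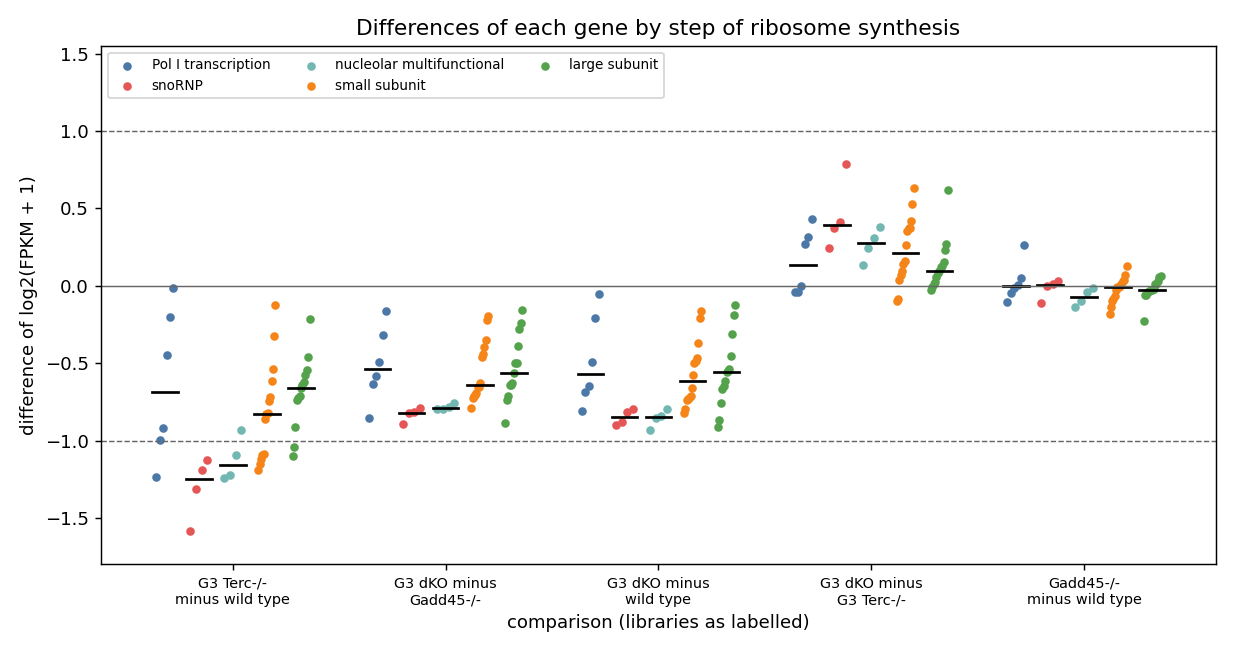
Difference of log2(FPKM + 1) for each of the 41 genes in 5 comparisons, coloured by step, with the median of each step as a black bar and the 2-fold size as dashed lines. In the first comparison the snoRNP and multifunctional groups lie lowest, with medians of -1.25 and -1.16, and in the last comparison all genes lie within 0.27 of 0.

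Levels within complexes were compared as ratios of FPKM, a scale per transcript length. The ratio of Nop56 to Nop58 was 1.11 in wild type, 1.22 in the library labelled Gadd45-/-, 0.92 in the G3 Terc-/- library and 1.20 in the library labelled dKO. Fbl stood between 2.15 and 2.37 times Nop58 in all 4 libraries. The ratio of Polr1a to Polr1b was 2.01 in wild type, 2.18 in the library labelled Gadd45-/-, 3.28 in the G3 Terc-/- library and 2.42 in the library labelled dKO. In the PeBoW complex, Pes1 stood at 1.10, 1.08, 1.20 and 0.997 times Bop1, and Bop1 at 3.11, 3.01, 3.55 and 3.99 times Wdr12. Imp3 stood at 3.09, 2.73, 3.41 and 2.89 times Imp4, and Npm1 at 12.8, 13.6, 11.8 and 12.4 times Gnl3. Of these 7 ratios, the G3 Terc-/- library was highest for 4 and lowest for 2, and the library labelled dKO was highest for Bop1 over Wdr12.

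The question of what the Gadd45 label goes with in Terc-proficient cells has a short answer for these genes. Between the library labelled Gadd45-/- and wild type the median difference was -0.01, with no member past 0.5 in either direction, where 1.11% of compared genes were lower and 2.41% higher by that size. Past the 2-fold size, where no member lay either, 0.198% of genes were lower and 0.337% higher. The largest difference was that of Polr1e, at 0.27, followed by Gnl3 at -0.23 (54.5 and 46.4 FPKM). Of the 41 members 25 lay below wild type, against 57.5% of all compared genes, and after median-of-ratios scaling 16 did, with a median of 0.02, so the direction depended on the scaling.

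Among G3 cells, members stood slightly higher in the library labelled dKO than in the G3 Terc-/- library. The median difference was 0.16, against -0.03 over all compared genes, and 34 of 41 members were higher, where 46.2% of genes were higher and 53.8% lower. Counting intervals of some of the 34, such as Pes1, Noc3l and Noc4l, overlapped between these libraries. Those of others, such as Nop56 and Npm1, did not. Median-of-ratios scaling put 39 of 41 higher and quantile normalization 40 of 41. Of the 7 lower members, Polr1a, Polr1e, Rrn3, Ddx18 and Wdr74 were higher under both scalings and Ddx10 under quantile normalization. Emg1, at -0.10, stayed lower under both, at -0.02 and -0.04.

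No member passed the 2-fold size between the G3 libraries, where 1.52% of genes were higher and 4.78% lower by it. At the smaller size of 0.5, 4 of 41 members were higher, which is near the share of all compared genes, 8.09%. They were Nop56 (26.1 against 45.9 FPKM, a difference of 0.79), Nat10 (6.09 against 9.99 FPKM, 0.63), Nle1 (5.74 against 9.33 FPKM, 0.62) and Rrp9 (17.0 against 24.96 FPKM, 0.53). In wild type the same genes stood at 80.3, 14.4, 10.3 and 40.0 FPKM, above both G3 libraries. For 34 of 41 members the library labelled dKO lay above the G3 Terc-/- library and below wild type, as it did for 28.4% of compared genes. All 41 members lay below wild type in the library labelled dKO, so these are the 34 already counted as higher. The 28.4% also covers genes that were not lower in the G3 libraries, so it is not a like base for the members. For some of the 34 members the gap to the G3 Terc-/- library was within counting error.

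Terc deficiency was compared a second way, within the libraries that carry the Gadd45 label. All 41 members were lower in the library labelled dKO than in the library labelled Gadd45-/-, with a median of -0.64 against -0.01 over all genes, of which 51.1% were lower and 48.8% higher. None passed the 2-fold size, where 2.35% of genes were lower and 2.49% higher by it, and 27 were lower by at least 0.5, against 10.4% of genes. Nolc1 and Mrto4 had the largest differences, both -0.89, at 52.7% and 53.3% of the level in the library labelled Gadd45-/-. The smallest were those of Nle1, -0.15, and Rrn3, -0.16. Sex differed between these libraries as well as Terc, and its part in the result was not tested.

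Against wild type, a library that the comparison with the G3 Terc-/- library also used, the library labelled dKO was lower for all 41 members, as it was for 54.5% of genes. The median was -0.66, with 28 of 41 members lower by at least 0.5 (12.6% of genes) and none by the 2-fold size (2.85% of genes, with 3.81% higher by it). Npm1 had the largest difference, -0.93, followed by Mrto4 at -0.91 and Nop58 at -0.90. By step, the medians were -0.57 for Pol I genes, -0.85 for snoRNP genes, -0.85 for multifunctional nucleolar genes, -0.62 for small-subunit genes and -0.56 for large-subunit genes.

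Genes of the same pathway outside the list pointed the same way with smaller medians. In the 4 lists of other ribosome biogenesis genes 108 of 109 genes were measured, of which 100 were lower in the G3 Terc-/- library than in wild type, 9 by the 2-fold size, with none higher by it and a median of -0.44. Other Pol I genes had a median of -0.52 (8 of 9 lower), led by Taf1d, a subunit of the Pol I selectivity factor (29.1 and 17.9 FPKM in wild type and the G3 Terc-/- library). Other snoRNP genes had a median of -0.62 (12 of 12 lower, 2 by the 2-fold size), led by Dkc1, the pseudouridine synthase dyskerin (17.0 and 6.14 FPKM), and Nhp2 of the same box H/ACA particles (72.2 and 33.3 FPKM).

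Other small-subunit genes had a median of -0.51 (40 of 42 lower, 3 by the 2-fold size), with Nol7 at 27.66 and 12.05 FPKM and Aatf at 21.7 and 9.62 FPKM. Other large-subunit genes had a median of -0.37 (40 of 45 lower, 4 by the 2-fold size), with Rrs1 at 44.05 and 18.99 FPKM and Rpf1 at 19.1 and 7.97 FPKM. Exosome and nuclease genes, which trim rRNA ends, had a median of -0.45 (15 of 17 lower), with the nuclease gene Dis3 at 14.3 and 4.70 FPKM. As the members were chosen with results known, the gap between their median and those of the other lists cannot be read as a property of the members.

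Polymerases other than Pol I and ribosomal proteins were compared in the same way. None of 13 Pol II subunit genes passed the 2-fold size, and their median was -0.30. For 15 Pol III genes the median was -0.28, with none lower by that size and 1, Polr3gl, higher (6.11 and 15.6 FPKM). Of 84 cytoplasmic ribosomal protein genes 81 were lower, 2 of them by the 2-fold size, while 1, Rpl26, was higher by it, and the median was -0.46, about that of the other ribosome biogenesis lists. Of 76 mitochondrial ones 59 were lower, and the median was -0.28. The summed level of the cytoplasmic ribosomal proteins in the G3 Terc-/- library was 74.1% of wild type, beside 48.9% for the members. These values describe the libraries and were not tested against each other.

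**Figure D4:**
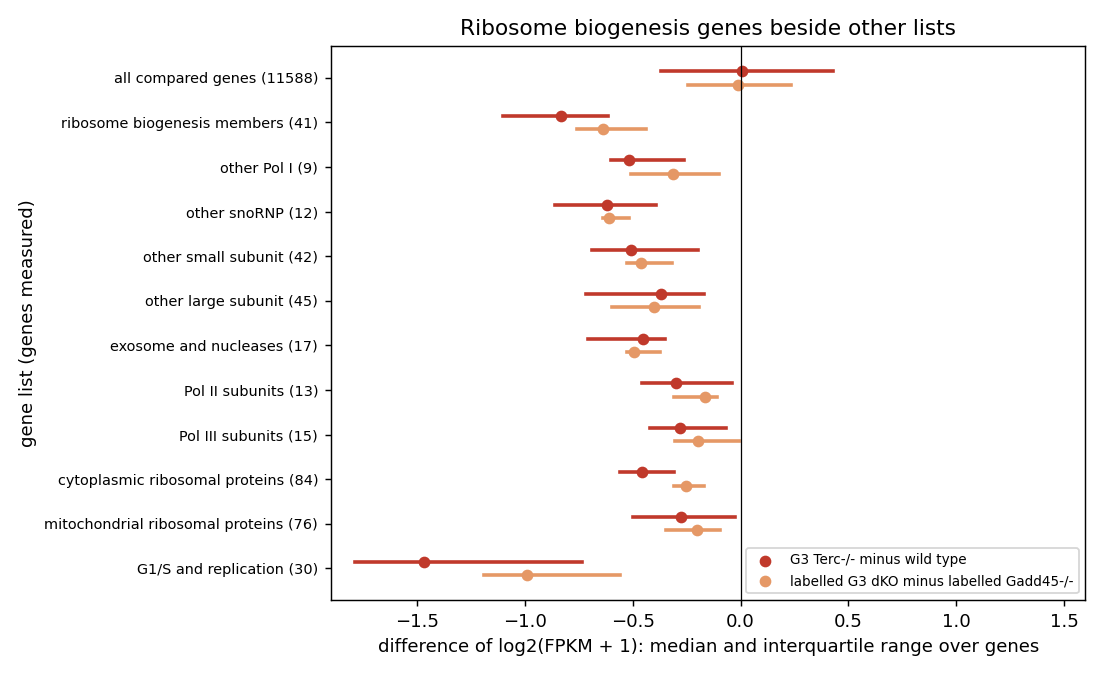
Median (point) and interquartile range over genes (bar) of the difference of log2(FPKM + 1) for the members and other gene lists, in both comparisons of a Terc-deficient with a Terc-proficient library. The members' medians of -0.83 and -0.64 lie between those of G1/S and replication genes (-1.47 and -0.99) and those of the other ribosome biogenesis lists.

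Proliferation genes were also lower in the G3 libraries. Of 30 genes of the G1/S transition and replication, 21 were lower by the 2-fold size in the G3 Terc-/- library than in wild type, and their median was -1.47. Between the library labelled dKO and the G3 Terc-/- library their median was 0.49. Mcm5, a subunit of the replicative helicase, stood at 23.04, 23.9, 3.95 and 8.75 FPKM. Their part in the members' differences was not tested.

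The Myc transcript did not follow the order of the members. It stood at 44.5 FPKM in the wild-type library, 36.4 in the library labelled Gadd45-/-, 31.9 in the G3 Terc-/- library and 14.9 in the library labelled dKO, so that it was lowest where the members were intermediate. Its partner Max was close to level, at 32.0, 32.7, 29.4 and 34.2 FPKM. Of the repressors that compete with MYC for Max, Mxi1 was highest in the G3 Terc-/- library (2.89, 2.86, 7.96 and 3.96 FPKM) and Mxd3, which is known to be expressed in dividing cells, was lowest there (16.6, 16.6, 6.57 and 11.7 FPKM). Mnt stood at 15.0, 14.4, 9.39 and 10.3 FPKM and Mxd4 at 44.0, 46.4, 41.5 and 57.8 FPKM. Mga, Mlx, Mlxip and Mxd1 differed by less than 0.5 in size in all 5 comparisons, and Mycn stayed under 1 FPKM. MYC protein was not measured, and its part in the members' differences was not tested.

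Of 9 genes that link the nucleolus to p53, 5 were higher and 4 lower in the G3 Terc-/- library than in wild type. By the 2-fold size 3 were higher, where 9.93% of compared genes were, and none was lower, where 6.24% were. Cdkn2a, which encodes the nucleolar p53 activator ARF as well as a cell cycle inhibitor, stood at 93.9, 115, 407 and 156 FPKM. Mdm2, the ubiquitin ligase that holds p53 down and is itself induced by it, stood at 49.2, 52.1, 159 and 73.35 FPKM. Cul9, a cullin that binds p53, stood at 1.07, 1.26, 6.45 and 3.12 FPKM. For these 3 genes the G3 Terc-/- library was highest and the library labelled dKO next. Cdkn1a and Hdac6 were higher by less, with differences of 0.93 and 0.53. The 4 lower genes were Trp53, which encodes p53 (85.5 FPKM in wild type and 65.8 in the G3 Terc-/- library), Rpl5 (442 and 321), Rpl11 (1470 and 1088) and Rpl23 (808 and 631). The part of these genes in the members' differences was not tested.

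Sequence before the members' start sites was looked at for the letters CACGTG, the E-box that MYC and MAX bind, because the members differed in the same direction. RefSeq promoter windows of build GRCm38.p6, with 250 bases before and 50 after a start, were matched by symbol for 36 of 41 members. The motif reads the same on both strands. It was in a window of 10 of 36 members (27.8%), of 12.2% of compared protein-coding genes with a window and of 8.09% of all genes in the table. Windows of 26 bases around it are shown for members where it lay far enough from the edge, 5′ to 3′ on the gene's strand, with the E-box in capitals.
Rrn3 at position -215 (chr16:13780474-13780499, + strand): gcgccaaggtCACGTGcacacgcctc
Rrn3 at position -48 (chr16:13780641-13780666, + strand): acgctctgctCACGTGggccgcgtcc
Imp4 at position -121 (chr1:34439698-34439723, + strand): ggtcttagacCACGTGacatcccaaa
Nop2 at position -60 (chr6:125131813-125131838, + strand): gtccctggatCACGTGtgttccggtg
Pes1 at position 3 (chr11:3963967-3963992, + strand): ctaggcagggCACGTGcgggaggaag
Wdr43 at position 18 (chr17:71616222-71616247, + strand): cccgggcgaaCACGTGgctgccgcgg
Nle1 at position 24 (chr11:82908357-82908382, - strand): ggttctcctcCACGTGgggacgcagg
Tsr1 at position 25 (chr11:74898094-74898119, + strand): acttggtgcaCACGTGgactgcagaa
Ltv1 at position 29 (chr10:13193094-13193119, - strand): cctgtggaccCACGTGtggagctgcc

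Positions give the first base of the motif counted from the annotated start, with negative numbers before it. Utp20 and Mybbp1a held the motif too close to the window's edge to show. Rrn3, whose window held 2 copies, had one of the smallest differences between the G3 Terc-/- library and wild type (23.0 and 19.8 FPKM). Nop56, which had the largest (80.3 and 26.1 FPKM), held none in its window. These are 2 picked genes, and E-boxes outside the windows were not looked at. Members with the E-box had a median difference of -0.78 and members without it -0.79. Searched on both strands, and chosen after the values were seen, were also CCGGAAG, bound by ETS factors, in 13 of 36 members (36.1%, against 20.6% of compared protein-coding genes), and GGGCGG, the GC box, in 27 of 36 (75%, against 71.7%). The median difference was -0.64 in members with CCGGAAG and -0.93 in those without, and -0.74 with GGGCGG and -0.86 without. These splits were not tested. The 250 bases before the start of Nop56 and Rrn3 are shown as the members with the largest difference and with 2 E-boxes, with every match to the 3 motifs in capitals.
Nop56 (chr2:130274162-130274411, + strand): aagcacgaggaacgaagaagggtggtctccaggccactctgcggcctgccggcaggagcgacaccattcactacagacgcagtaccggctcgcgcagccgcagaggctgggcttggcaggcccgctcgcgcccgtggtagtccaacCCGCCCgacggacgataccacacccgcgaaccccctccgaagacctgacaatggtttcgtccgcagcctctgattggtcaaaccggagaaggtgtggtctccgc
Rrn3 (chr16:13780449-13780698, + strand): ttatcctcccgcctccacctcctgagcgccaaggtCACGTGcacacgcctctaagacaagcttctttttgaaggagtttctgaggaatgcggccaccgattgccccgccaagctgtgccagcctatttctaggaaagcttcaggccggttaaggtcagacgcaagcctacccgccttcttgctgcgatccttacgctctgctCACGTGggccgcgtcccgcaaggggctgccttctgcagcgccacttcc

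The printed stretch of Nop56 held 1 match, a GC box on the other strand, and that of Rrn3 held its 2 E-boxes. A match is a stretch of letters and not a measured binding site.

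Several members carry small nucleolar RNA genes inside their own gene body. In introns this is an arrangement known for genes of the translation machinery, but intron positions were not looked at. In GENCODE release M21, 7 of 41 members (17.1%) had at least 1 small nucleolar RNA gene on the same strand inside the gene body, against 1.98% of compared protein-coding genes. They were Nop56, Nop58, Ncl, Wdr43, Tsr1, Gnl3 and Ppan, with 5 such genes in Nop56 and 4 in Nop58. Their median difference between the G3 Terc-/- library and wild type was -1.09, against -0.73 for the other 34 members and -0.31 for all 203 compared genes with a small nucleolar RNA gene inside. Nop56, Nop58 and Ncl belong to the snoRNP and multifunctional groups, whose medians were -1.25 and -1.16. The split is thus mixed with step, and it was not tested.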

How the data were processed

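The authors deposited 1 table of FPKM values per library, with 1 value per gene symbol. Per the submitters' processing notes, TopHat2 2.1.1, Cufflinks 2.2.1 and build mm9 were used, with no role stated for each. Annotation, filters and strand setting are not given in the sources used here. RNA was selected on oligo(dT) beads and copied with random hexamers, per the labels' protocols, so rRNA itself was not measured. Exons of 15 members overlap an antisense gene in GENCODE M21, among them Nop56 (Idh3b), Gnl3 (Pbrm1) and Bop1 (Mroh1), so without strand their fragments cannot be told apart.

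Symbols of short non-coding RNA (741) were left out of 22494 compared, of which 11588 had a mean of at least 1 FPKM. Differences are of log2(FPKM + 1), and the pseudocount of 1 understates those of low genes. With 1 library per genotype there was no test. The size rule was tried on simulated libraries with counting error only and set fold changes larger than that of any member. Variation between cultures was not simulated, so the trial says nothing about how well the members' differences would repeat. Depth was estimated from the whole-fragment steps of low values (up to 0.05 FPKM, transcripts of 1500 to 8000 nt, fragments of 200 nt), and 74.5% to 77.9% of these lay within 0.1 of a whole fragment; the same values set the estimate. Fragments per member used the full length of the longest coding transcript and are approximate, and intervals cover counting error only. This choice of length can put the fragment counts too high and the intervals too narrow. Genes named are all members, the MYC network and the 9 genes that link the nucleolus to p53. From each other list, up to 4 genes with the largest difference between the G3 Terc-/- library and wild type are named. The members, lists and steps were chosen with earlier results of these data known. Alternatives were a pseudocount of 0.1 FPKM, median-of-ratios scaling, quantile normalization, no filter on the mean, and short RNAs kept. Coordinates are of GRCm38.p6 from RefSeq and belong to the sequences only. Python 3.11.15, pandas 2.3.3, NumPy 2.4.6, SciPy 1.17.1 and matplotlib 3.10.9 were used.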

Additional observations from a re-analysis of the deposited data

Results flagged for a closer look

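In 6 of 41 members the Gadd45 label went with a lower level in Terc-proficient cells and a higher one in G3 cells, each by at least 0.1 on the log2(FPKM + 1) scale, a size chosen after the values were seen. The same held for 10.2% of all compared genes. The difference in G3 cells minus that in Terc-proficient cells was 0.77 for Nat10, 0.52 for Nop58, 0.46 for Gnl3, 0.45 for Npm1, 0.42 for Polr1b and 0.32 for Imp3. With median-of-ratios scaling and with quantile normalization 4 members met this size, without Polr1b and Nop58, against 9.68% and 12.3% of genes. These counts of members are near the shares of all genes and are not read as a property of the members. With 1 library per genotype the differences were not tested, and the library labelled Gadd45-/- also differed in sex. Over all 41 members the median of this double difference was 0.23, with 33 above 0 (80.5%), against -0.0027 and 49.7% over all compared genes. The double difference subtracts the G3 Terc-/- library and adds wild type, so members low in the G3 Terc-/- library tend towards positive values. As the members were chosen with earlier results known, this contrast is not read as a property of the members.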

How the results depend on the processing

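No paired analysis was possible because each genotype has 1 library. All 5 median differences of the members stayed within 0.1, and all 5 counts past the 2-fold size within 1.5 times, under all 5 alternatives. The median between the library labelled Gadd45-/- and wild type changed sign, from -0.01 to 0.02, with median-of-ratios scaling. Between the G3 Terc-/- library and wild type the count was 15, and 16 with a pseudocount of 0.1 FPKM, median-of-ratios scaling or quantile normalization, since Polr1b lies at the limit. The order with both G3 libraries lowest held for 41 of 41 members under each scaling. Quantile normalization moved the median of large-subunit genes between the G3 libraries from 0.10 to 0.21. Without the filter on the mean, the share of all genes past the 2-fold size was 9.02% against 16.2% for the G3 Terc-/- library and wild type, 0.325% against 0.535% for the library labelled Gadd45-/- and wild type, 3.65% against 6.30% between the G3 libraries, 2.63% against 4.84% between the libraries with the Gadd45 label, and 3.58% against 6.65% for the library labelled dKO and wild type. Size factors lay between 0.98 and 1.04.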
